A study of Mus musculus with 2 samples.

Results

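The 8 genes described here encode the MEF2 transcription factors (Mef2a, Mef2b, Mef2c and Mef2d) and the class IIa histone deacetylases (Hdac4, Hdac5, Hdac7 and Hdac9). They were selected by gene family, 8 of 21866 protein-coding genes of the mouse annotation, by a rule that uses no measured value, although results of these data were already known. Open chromatin was mapped by DNase-seq, which sequences the ends left where the enzyme DNase I cuts accessible DNA, in gastrocnemius muscle of female B6CASTF1/J mice aged 14 days. The series holds 1 group of 2 biological replicates, with no treatment, no genotype contrast and no control group. The label of each replicate names 3 females, and does not say whether their tissue was pooled. With 1 group there is no comparison between conditions and no test. Signals of single sites are given for both replicates, and their spread is the only measure of error for the signals. An interval given for footprints covers counting error over sites only. Whole muscle holds several cell types, so a weak site in every nucleus and a strong site in a few cannot be told apart.

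MEF2 proteins are MADS-box factors that bind an A/T-rich element as dimers and act in muscle together with the MyoD family of factors. Class IIa deacetylases have little catalytic activity of their own. They bind MEF2 through an amino-terminal extension, bring in corepressor complexes that hold the class I enzyme HDAC3, and keep MEF2 target genes low. Calcium-dependent and other kinases phosphorylate them, 14-3-3 proteins then hold them in the cytoplasm, and MEF2 is released. In skeletal muscle this circuit is known for its part in fibre type, activity-dependent gene expression and the response to loss of innervation.

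The strict peak list held 87558 peaks in replicate 1 and 79562 in replicate 2, with a median signal of 1.53 in each, and 68349 merged sites held a strict peak of each replicate. Signal is the authors' value for each peak, whose scale is not given in the sources used here. Among marker genes, 8 of 10 for skeletal muscle had a shared promoter site (Ckm 13.1 and 8.99, in replicates 1 and 2), and Myh1 and Myh4 had none. A shared promoter site was present at 4 of 5 endothelial genes (0.841 to 2.60 in replicate 1), 5 of 5 neuronal genes (0.431 to 4.33), 0 of 6 blood and macrophage genes and 0 of 5 heart genes. By the permissive list 3 of the 5 heart genes had a shared promoter site and none of the blood genes did, and Myl7 (1.23) and Tnni3 (1.48) had a strict peak in replicate 1 alone. The part of other cell types in the signals below was not tested.

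All 8 genes had at least 1 open promoter in both replicates, against 62.5% of protein-coding genes. A gene with more annotated starts has more chances of an open one, and the share of open starts is given below. A promoter was called open when the midpoint of a shared site lay within 1000 bp of a transcription start site (TSS) of a protein-coding transcript. By the permissive peak list, which is longer, the count was also 8 of 8, against 67% of genes. The strongest promoter peak spanned a wide range, from 34.8 and 26.5 at Hdac4 to 0.650 and 0.718 at Hdac9 (replicates 1 and 2). For comparison, the median over the 13668 genes with such a site was 8.0 in replicate 1 and 7.22 in replicate 2. Both families were spread along this range. Hdac4 stood first, followed by Mef2b, then Hdac5 and Mef2a, whose replicate ranges overlapped, then Mef2d. The place of Mef2b rests on a peak that lies nearest to a TSS of Rfxank. Where no other protein-coding gene starts, Mef2b had 3.04 and 3.36. Hdac7 and Mef2c came next, again with overlapping ranges, and Hdac9 was last. Replicate 2 had lower signals over all shared sites, with a median log2 ratio of -0.14 and an SD of 0.30. After centring on that median, the log2 ratio at the strongest promoter peak lay between -0.25 (Mef2b) and 0.29 (Hdac9), less than 1 SD from 0 for each of the 8 genes.

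**Figure D1:**
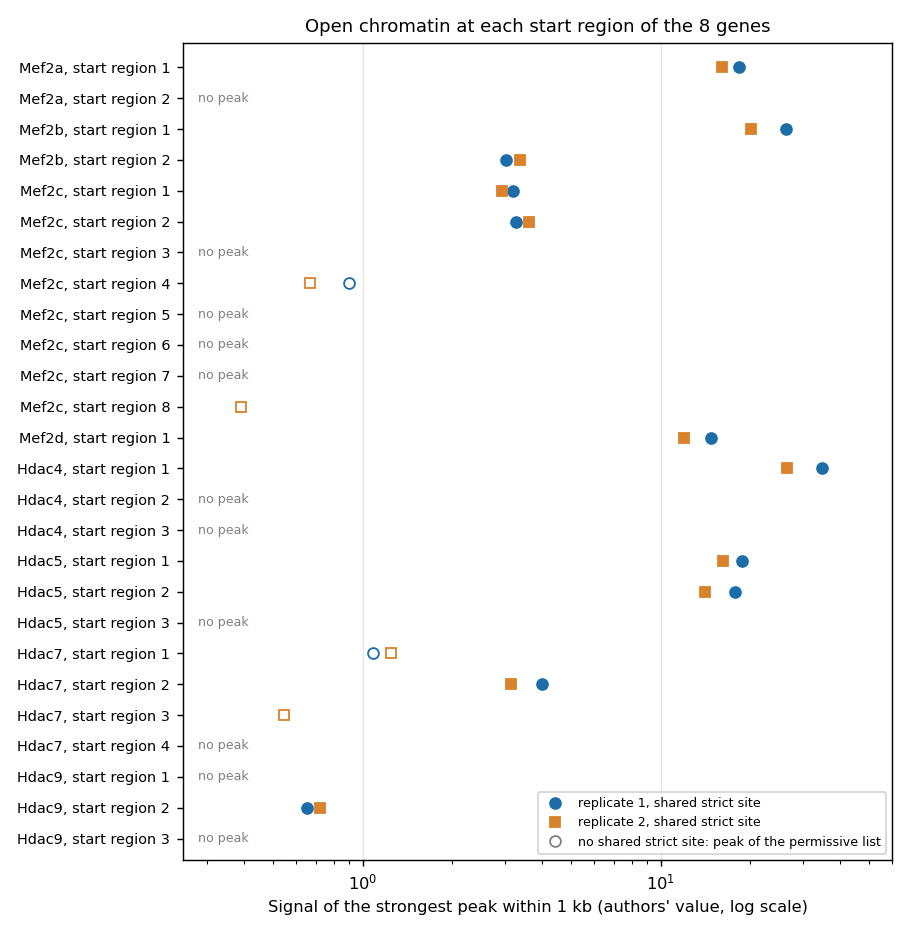
Signal of the strongest peak within 1 kb of each of the 26 start regions (rows), on a log scale; circles are replicate 1 and squares replicate 2, filled where a strict site was shared and open where the permissive list alone is drawn. Of the 26 start regions 11 had a shared strict site, from 34.8 and 26.5 at the first start of Hdac4 to 0.650 and 0.718 at the second of Hdac9, and most of the others had no peak at all.

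The 8 genes have 55 distinct TSSs, which fall into 26 start regions when TSSs of a gene less than 1000 bp apart are joined. Of the 26, 11 were open and 15 were closed. Over all genes, 15258 of 32542 start regions were open. All genes had 1.49 start regions each on average, so the 8 genes had more chances of an open promoter. Most first start regions, the most upstream of a gene, were open (6 of 8, against 59.3% of the first start regions of all genes). Later ones were mostly closed (5 of 18 open, against 21.4% of later start regions of all genes). In the per-base lists of bases with a false discovery rate of the cut rate under 0.05, 11 of the 15 closed regions had no listed base within 1 kb in either replicate. A further 2 had listed bases in 1 replicate only, and 2 had them in both, namely the first start of Hdac7 and the fourth of Mef2c.

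Mef2a, one of the MEF2 genes of mature muscle, had 1 open and 1 closed start region. The peak over its first TSS (chr7:67372781-67372960, mm10, minus-strand gene) reached 18.3 in replicate 1 and 16 in replicate 2, at the 86.8th percentile of genes with a promoter site. A broader peak centred 0.473 kb upstream had 8.97 and 7.40, and one in an intron 1.84 and 1.57. The start region 107 kb into the gene had no peak in either list.

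Mef2b, the most divergent gene of the family, had the second strongest promoter peak (26.4 and 20.1, 96.1st percentile). That peak cannot be assigned to it, because TSSs of Borcs8 and Rfxank lie within 1 kb of the same midpoint. Another shared site at this first start, centred 10 bp from the Mef2b TSS, had 1.72 in replicate 1 and 2.16 in replicate 2. Borcs8 and Rfxank also start within 1 kb of it. At the start region 13.1 kb further in, where no other protein-coding gene starts, the signal was 3.04 in replicate 1 and 3.36 in replicate 2. By that start Mef2b stood near Mef2c and Hdac7 rather than near Hdac4.

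Mef2c, needed for the structure of postnatal muscle and also made in endothelium and neurons, has 8 start regions, of which 2 were open and both were weak. The first had 3.20 and 2.94. The second, 19.4 kb downstream and with 9 TSSs, carried 3 sites, the strongest at 3.28 and 3.62, and the mean of the gene's strongest site in each replicate stood at the 25.1st percentile. The 6 start regions further downstream had no shared strict site. The fourth had a permissive peak in both replicates (0.897 and 0.665), of which the first was also strict, and the eighth in replicate 2 alone (0.392).

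Mef2d, which is broadly expressed and gives rise to a muscle-specific protein isoform by splicing, has a single start region. Its main peak (chr3:88142181-88142420) had 14.7 in replicate 1 and 12.0 in replicate 2, at the 75.3rd percentile. A second promoter peak had 2.52 and 2.48 and the weakest 2.07 and 1.43. No protein-coding start of Mef2d was closed.

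Hdac4, a deacetylase known to rise in denervated muscle, had the strongest promoter peak of the 8. The peak at chr1:92180301-92180520, at its first TSS, had 34.8 in replicate 1 and 26.5 in replicate 2, rank 88 of 13668. The 2 peaks beside it had 8.39 and 7.42 (0.58 kb upstream) and 2.50 and 1.99 (in an intron). Its later start regions, 31.9 kb and 204.8 kb into the gene, were closed in both peak lists.

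Hdac5, a target of calcium-dependent kinases and AMP-activated kinase in muscle, was the only one of the 4 deacetylase genes with 2 open start regions. The first had 18.8 and 16.2, and the second, 11.2 kb into the gene, had 17.7 and 14.1. The ranges of the starts overlapped. The third, near the 3′ end of the gene, was closed.

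Hdac7, known best from endothelium and thymocytes, was closed at its first start by the shared strict rule and open at its second. At the first start a strict peak was present in replicate 2 alone (1.24), and the permissive list held a peak in each replicate (1.09 and 1.24). The second start region, 12.7 kb downstream, held 3 shared sites, the strongest with 4.01 and 3.15 (26th percentile). The third had a permissive peak in replicate 2 only (0.545), and the fourth had none.

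Hdac9, whose shorter product MITR lacks the catalytic domain and which is known as a target gene of MEF2, had the weakest promoter of the 8. Its shared site (chr12:34529341-34529480, centred 537 bp from the second start region) had 0.650 in replicate 1 and 0.718 in replicate 2. That is rank 13483 of 13668 genes with a promoter site. Its first start region and the third had no peak of either list within 1 kb, and the start that RefSeq places furthest upstream (position 34917095) had no shared site.

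Some of these calls depended on the annotation. Transcripts not annotated as protein-coding add 14 start regions to the 8 genes, of which 3 were open, at Hdac4 in 2 cases and at Mef2d in 1. RefSeq gives 14 starts for the 8 genes, and 10 of them had a shared site. The 4 closed ones belong to Hdac9, Mef2c and Hdac7. The only RefSeq start of Mef2b (position 70152761) lies at its second start region, so the peak with 26.4 and 20.1 rests on GENCODE. The only RefSeq start of Hdac5 (position 102230172) lies at its first start region, so its second open start also rests on GENCODE.

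The open start regions had a higher median GC content than the closed ones. In the 300 bp around the most upstream TSS of each region (250 bp before, 50 bp after), the median GC content was 61% over the 11 open and 46.3% over the 15 closed regions. The medians over all open and all closed start regions of the annotation were 60% and 46.7%. The ratio of observed to expected CpG, which is high in CpG islands, had a median of 0.619 in the open and 0.313 in the closed regions. Over all open and all closed start regions the medians were 0.725 and 0.206, a wider difference. Of the 11 open regions 6 were first starts, while most of the closed ones were later starts. The first start of Mef2c was open with 35.7% GC and a CpG ratio of 0.109, the lowest of both measures among the open regions. The fourth start of Hdac7 was closed with 64.7% GC.

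**Figure D2:**
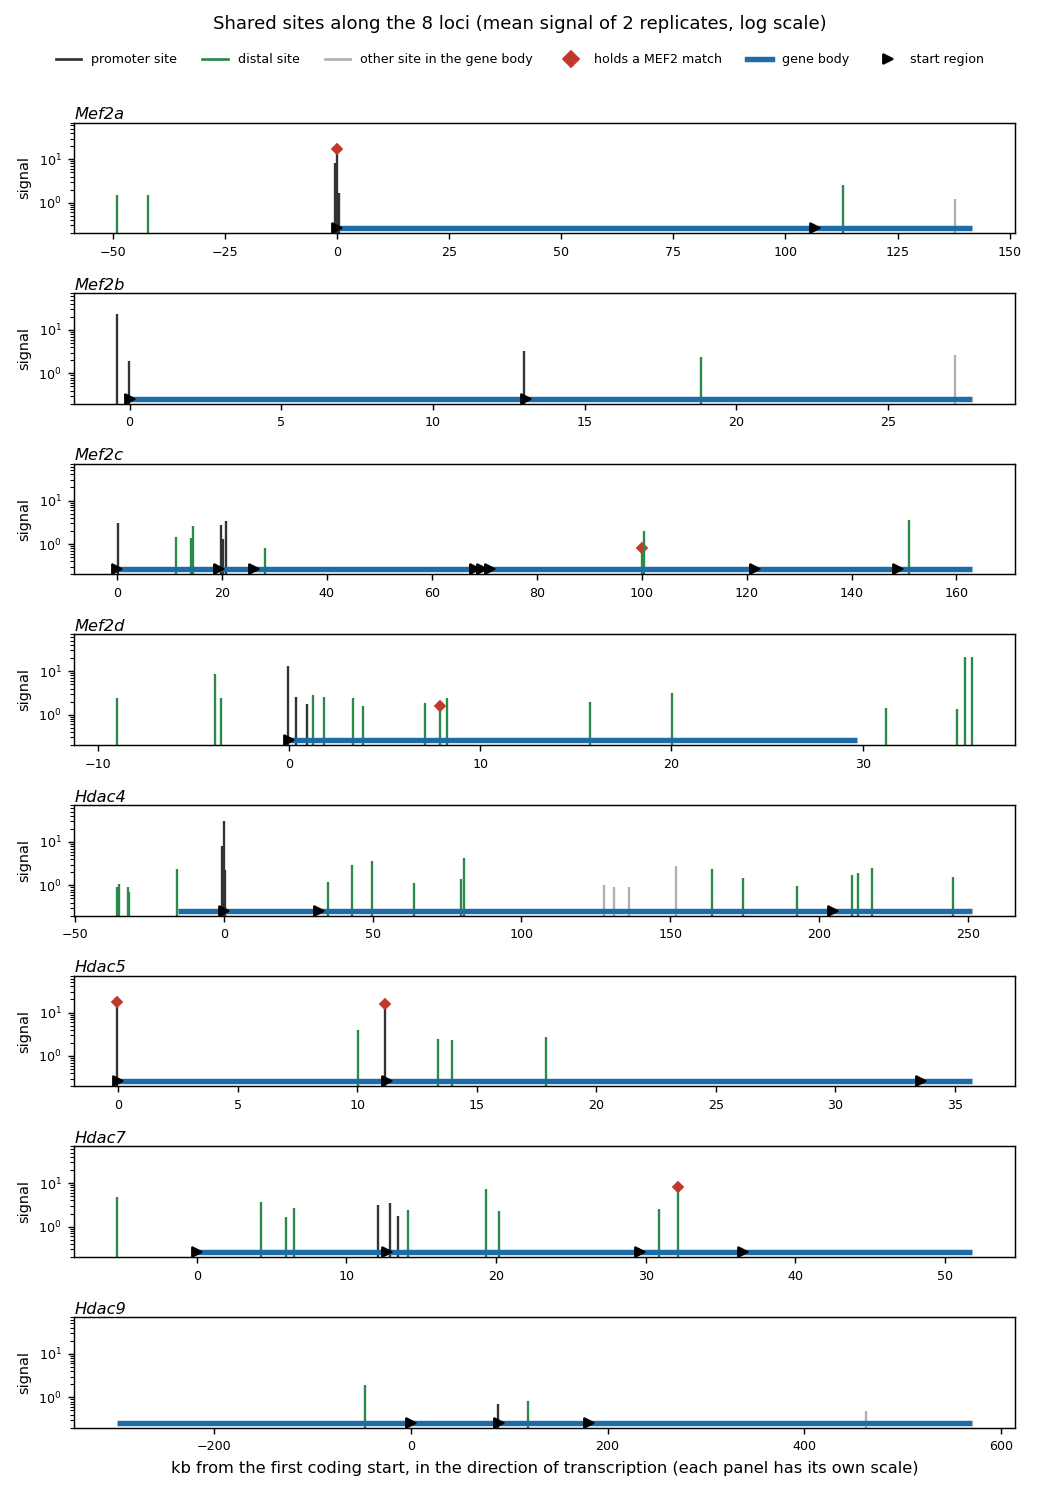
Mean signal of the 2 replicates (vertical axis, log scale) for each shared site along the 8 loci, by distance in kb from the first protein-coding start in the direction of transcription; arrowheads are start regions, blue bars the annotated gene with all its transcripts, and diamonds mark sites with a MEF2 match. Sites of Mef2d are packed in a short locus that ends in a pair of sites above 21 downstream of the gene, while Hdac9 has 2 distal sites over a much longer one.

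All 8 genes had at least 1 distal site, against 50.6% of genes, and 60 distal sites were assigned in all. A distal site lies more than 1 kb from every protein-coding TSS and is assigned to the nearest one within 50 kb, a rule of proximity that says nothing of which gene a site acts on. The median was 5.5 distal sites per member, against 1 over all genes. Most of the 60 lay in introns of protein-coding transcripts of the gene they were assigned to (42), 16 lay outside such transcripts and 2 overlapped coding exons. The upstream site of Hdac9 is 1 of the 16, but lies inside the annotated gene, in which GENCODE lists no protein-coding transcript from the furthest upstream start. Their median signal was 2.24 in replicate 1 and 2.04 in replicate 2, against 1.80 and 1.61 over all 31682 distal sites. Another 7 shared sites lay inside a member gene but were not assigned to it. Of these, 4 lay in Hdac4 more than 50 kb from any protein-coding start, the strongest with 2.83 and 2.75.

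The room that the assignment gives each gene differed widely. The territory, meaning the sequence nearer to the gene's TSSs than to any other and within 50 kb, ranged from 14.1 kb for Mef2b to 275 kb for Hdac9. Mef2d had 16 sites in 66.6 kb, or 24.0 per 100 kb, at the 98.8th percentile of all genes. The 16 include a strong pair and a weak site (1.48 and 1.19) within 1 kb of a TSS of the non-coding 1700113A16Rik. Another lies within 1 kb of a Mef2d start not annotated as protein-coding. Hdac7 had 13.7 per 100 kb, Hdac5 9.91, Hdac4 7.97 (18 sites) and Mef2b 7.11 (1 site). Mef2c had 3.02 (66.5th percentile), Mef2a 1.79 (57.5th percentile) and Hdac9 0.728 (49.6th percentile). Over all genes the median was 0.905 per 100 kb and the mean 2.72. The 8 genes together had 5.52 per 100 kb, which is their 60 sites over their summed territory and not a median or mean of single genes.

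**Figure D3:**
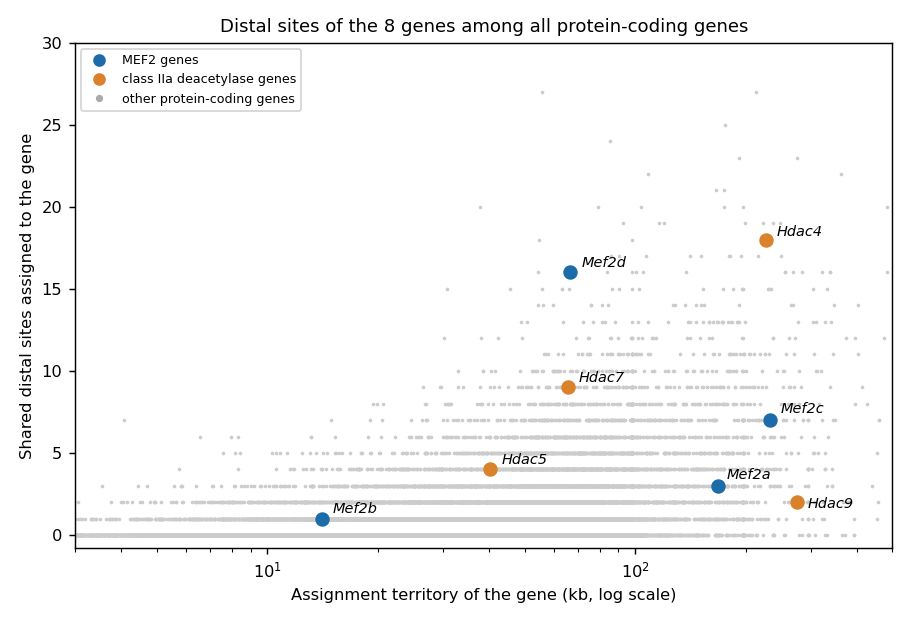
Shared distal sites (vertical axis) against the assignment territory in kb (horizontal axis, log scale), with each protein-coding gene a grey point and the 8 genes in blue (MEF2) and orange (deacetylases); 422 genes lie outside the plotted range and 206 have no territory. Mef2d and Hdac4 reach 16 and 18 sites, Mef2d in a territory of 66.6 kb and Hdac4 in one of 226 kb, while Hdac9 has 2 sites in 275 kb.

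The strongest distal sites lay at Mef2d. A pair at chr3:88177621-88177840 (23.5 in replicate 1, 18.8 in replicate 2) and chr3:88178021-88178220 (23.7 and 19.5) stood at the 99.8th and 99.9th percentiles of all distal sites, higher than the Mef2d promoter itself. Both lie about 35 kb downstream of the Mef2d start, outside the gene and within 1 kb of a TSS of 1700113A16Rik, a gene with no protein-coding transcript, so they may equally be counted as promoter sites of that gene. The next was chr3:88138381-88138540, 3.91 kb upstream of Mef2d, with 9.26 and 8.41 (97.9th percentile). The fourth, in an intron and within 1 kb of a start of a Mef2d transcript not annotated as protein-coding, had 3.09 and 3.20.

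Distal sites of the other MEF2 genes were weaker. At Mef2c the strongest lay in an intron 2.18 kb past the eighth start region (3.46 and 3.54), followed by sites with 2.46 and 2.71, 1.81 and 2.10, and 1.67 and 1.22. The 3 sites of Mef2a had 2.97 and 2.27 in an intron, and 1.68 and 1.37, and 1.56 and 1.40, upstream of the gene. The single site of Mef2b, in an intron, had 2.32 and 2.34.

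Among the deacetylases, Hdac7 had the strongest distal sites, and 3 of them exceeded its own promoter. The first lies in an intron (chr15:97812221-97812440) and had 8.70 in replicate 1 and 7.44 in replicate 2, at the 97.3rd percentile. The second, also intronic (chr15:97825061-97825280), had 7.55 and 7.52. A site 5.32 kb upstream of the first start had 5.15 and 4.27, and an intronic one 3.83 and 3.59. The first 3 were above the 4.01 and 3.15 of the open promoter in both replicates, and the last in replicate 2 alone.

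Hdac4 had many weak sites and few strong ones. Its 4 strongest, all intronic, had 4.71 and 3.86, 3.94 and 3.28, 3.25 and 2.72, and 2.51 and 2.43, and its 18 sites went down to 0.685 and 0.705. At Hdac5 all 4 sites lay in introns around the second start region, led by one 1.21 kb upstream of it with 4.48 and 3.24. The others had 2.77 and 2.77, 2.78 and 2.24, and 2.70 and 1.88. Hdac9 had 1 site 46.5 kb upstream of its first protein-coding start (1.90 and 1.93) and 1 in an intron (0.883 and 0.784).

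Strict peaks without a strict partner in the other replicate made up 16 of 97 in replicate 1 (16.5%, against 19.4% of all promoter and distal peaks) and 17 of 98 in replicate 2 (17.3%, against 12.9%). The strongest unpaired peak had a signal of 1.5, in Hdac7. Of the unpaired peaks, 12 and 10 overlapped a permissive peak of the other replicate.

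Footprints, short stretches inside a peak that were cut less than their surroundings, were called by the authors in each library at a false discovery rate of 0.01. Of the 82 promoter and distal sites of the 8 genes, 79 overlapped a footprint of at least 1 replicate (96.3%, exact Clopper-Pearson 95% interval 89.7 to 99.2%). The share over all shared sites was 96.5%. Overlapping footprints from both replicates were present in 72 sites (87.8%, against 88.1% of all sites). The 3 sites with none were a promoter site of Mef2a, one of Mef2c and a distal site of Mef2d, with signals of 1.84 and 1.57, 1.24 and 1.32, and 1.48 and 1.19. Intervals cover counting error over sites only, and sites of 1 locus are not independent.

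The 82 sites were searched on both strands for the MEF2 consensus, written as CTA, 4 bases of A or T, and TAG. A match occurred in 6 of them (7.32%), against 0.569% of all shared sites, and the 6 sites held 7 matches. They lay in Mef2a, Mef2c, Mef2d, Hdac5 (2 sites) and Hdac7, so 5 of the 8 genes had at least 1 and Mef2b, Hdac4 and Hdac9 had none. By class, 3 of 22 promoter sites held a match (13.6%, against 0.301% of all promoter sites) and 3 of 60 distal sites (5%, against 0.694%). These are counts of letters in small sets of sites and were not tested. A match is not evidence of binding, and the lack of one says only that these letters are not in the window.

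The 7 matches are shown with 10 bases on each side, on the plus strand of mm10, with the match in capitals. They are shown because these consensus letters lie at loci of the MEF2 family itself and of its repressors. Binding was not measured.
Mef2a promoter, chr7:67372841-67372870: cacaccggggCTATTTTTAGgagtcaggcc
Hdac5 first promoter, chr11:102230173-102230202: cgaccccgagCTAAAAATAGgctcagaccc
Hdac5 second promoter, chr11:102218973-102219002: agggccctgtCTATAAATAGgtggagcatg
Hdac7 intron, chr15:97812341-97812370: ggtgcaggagCTATTTATAGctcaccagca
Mef2c intron, first match, chr13:83603965-83603994: tggcagttgcCTAAAAATAGaaaactgctt
Mef2c intron, second match, chr13:83603987-83604016: aactgcttaaCTAAAAATAGcctggctctc
Mef2d intron, chr3:88150212-88150241: actgcccaggCTAAAAATAGcccctgccca
Read on either strand, only 2 words occur in them. The word CTAAAAATAG accounts for 5 of the 7, in Mef2a, Hdac5, Mef2c (2 matches) and Mef2d, and it makes up 35.2% of the 395 matches in all shared sites. The word CTATAAATAG accounts for the other 2, in Hdac5 and Hdac7, and for 20% of all matches.

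The 3 promoter matches lay close to a TSS. At Mef2a the match spans the first TSS (position 67372858). At the first start of Hdac5 it lies 17 to 26 bp upstream of the TSS at 102230166, and at the second 55 to 64 bp upstream of the TSS at 102218928. Of the 66 promoter sites in the genome that held a match, 28 had its centre within 100 bp of a TSS. Ranked by mean signal among those 66, the 3 sites were sixth (Hdac5, first start), seventh (Mef2a) and ninth (Hdac5, second start). The median mean signal of the 66 was 3.42, against 3.82 over all promoter sites.

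**Figure D4:**
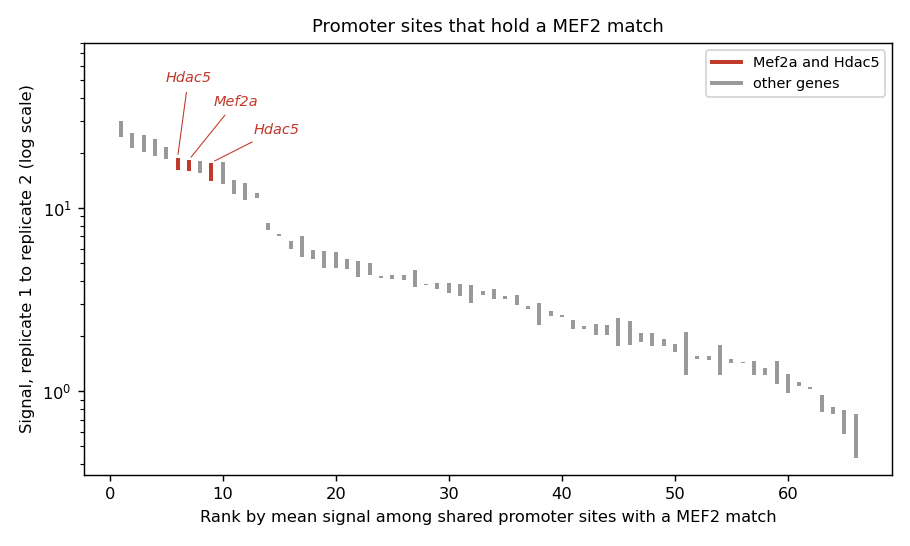
The 66 shared promoter sites with a MEF2 match, ordered by mean signal (horizontal axis, rank), with the signal from replicate 1 to replicate 2 as a vertical bar (log scale). The sites of Hdac5 and Mef2a, in red, stand at ranks 6, 7 and 9, in a group of strong sites led by Slc20a1 at 29.9 and 24.5.

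Footprints overlapped these matches unevenly. The Mef2d match was overlapped by a footprint of each replicate, the first Hdac5 match by one of replicate 1 only and the Mef2a match by one of replicate 2 only. The other 4 were overlapped by none. An overlap of 1 bp was counted, and no footprint covered a whole match. The Mef2d match runs from 88150222 to 88150231, and its footprints began at 88150230 in replicate 1 and at 88150228 in replicate 2. Over the 395 matches in all shared sites, 35.2% were overlapped in replicate 1, 32.2% in replicate 2 and 20% in both. The Mef2d site was a modest one (1.43 and 1.77), and the Mef2c site with its 2 matches was weak (0.883 and 0.751).

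The intronic site of Hdac7 is shown in full because it is the strongest distal site among the deacetylase genes and holds a MEF2 match among 3 copies of CAGCTG, the E-box that MyoD and myogenin bind. All 4 elements are in capitals on the plus strand of chr15:97812221-97812440 (mm10).
Hdac7 intronic site: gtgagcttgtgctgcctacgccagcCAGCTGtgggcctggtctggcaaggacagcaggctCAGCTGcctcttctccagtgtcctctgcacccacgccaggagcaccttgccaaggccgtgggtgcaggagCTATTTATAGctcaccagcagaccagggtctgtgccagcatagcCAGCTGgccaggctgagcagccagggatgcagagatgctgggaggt
The stretch upstream of the second Hdac5 start, chr11:102218929-102219140 on the plus strand, holds 1 CAGCTG and 1 MEF2 match, with the gene's TSS to the left of the first base.
Hdac5 second promoter: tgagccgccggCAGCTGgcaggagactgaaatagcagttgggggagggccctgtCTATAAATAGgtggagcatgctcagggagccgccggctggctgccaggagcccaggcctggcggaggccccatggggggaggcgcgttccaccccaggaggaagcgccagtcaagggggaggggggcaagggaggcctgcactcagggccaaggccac

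The E-box CAGCTG had a share near its background, while the shares of AP-1, TEAD and CTCF differed from theirs in counts of 5 to 12 sites that were not tested. CAGCTG occurred in 22 of the 82 sites (26.8%, against 25.3% of all shared sites), with 7 of them among the distal sites of Hdac4, and CACCTG in 12 (14.6%, against 14.5%). The AP-1 element TGANTCA occurred in 12 (14.6%, against 7.57%), of which 10 were distal. The TEAD element GGAATG occurred in 5 (6.10%, against 11.3%), the CTCF consensus in 5 (6.10%, against 11.2%), and the MEF3 element in 0 (against 0.361%). GC boxes, GGGCGG, were in 15 of 22 promoter sites (68.2%, against 61.5%) and in 6 of 60 distal sites (10%, against 14.8%). The NRF1 consensus occurred once, in the promoter peak that Mef2b shares with Borcs8 and Rfxank, inside a footprint of each replicate.

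Matches of CREB and CTCF were overlapped by footprints more often than those of MEF2. Over all shared sites a footprint of replicate 1 overlapped 85.6% of CREB matches, written TGACGTCA, and 91.0% of CTCF matches, against 35.2% for MEF2 and 32.9% for CAGCTG. At the 8 genes both CREB matches were overlapped in both replicates, as were 4 of 5 CTCF matches. The CREB matches lay in the leading distal site of Hdac5 and in the strong site upstream of Mef2d. At Hdac5 the footprint had the same ends in both replicates (102220083 to 102220111) and covered the whole match. At Mef2d the match runs from 88138441 to 88138448. The footprint ended at 88138444 in replicate 1 and at 88138441 in replicate 2, so each covered only part of it. An overlap of 1 bp was counted. The sites are shown on the plus strand with TGACGTCA and CAGCTG in capitals.
Hdac5 intronic site, chr11:102220061-102220220: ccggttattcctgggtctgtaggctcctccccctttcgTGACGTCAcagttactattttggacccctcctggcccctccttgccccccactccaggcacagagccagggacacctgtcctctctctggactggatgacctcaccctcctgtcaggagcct
Mef2d upstream site, chr3:88138381-88138540: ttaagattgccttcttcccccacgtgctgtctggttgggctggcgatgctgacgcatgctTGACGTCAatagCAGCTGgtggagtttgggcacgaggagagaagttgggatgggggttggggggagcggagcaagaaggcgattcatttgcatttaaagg
At Mef2d the CAGCTG follows the CREB match by 4 bases. The sequences are those of the reference genome, and alleles of the hybrid mice were not read.

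Most genes that act with or on these proteins were also open at a promoter. The share over all protein-coding genes was 62.5%, and the neuronal markers were also open at 5 of 5 genes. Differences of the lists from that share were not tested. All 10 calcineurin and NFAT genes were open, led by Ppp3ca, a catalytic subunit of calcineurin (32.1 in replicate 1 and 26.3 in replicate 2), Nfatc3 (19.5 and 15.5) and the regulatory subunit gene Ppp3r1 (18.4 and 16.7). Of 15 kinase genes 14 were open, with Sik1 (26.8 and 20.7), Mark2 (22.6 and 18.0) and Camk2d (18.5 and 16.2) first. Camk2b had a strict peak in replicate 1 only (1.36), and a permissive one in each. Sik1, a salt-inducible kinase gene, had 54 distal sites, against the 18 of Hdac4.

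All 7 genes of 14-3-3 proteins were open (against 62.5% of all protein-coding genes), led by Ywhaz (20.8 and 17.2), Ywhag (18.4 and 15.5) and Ywhaq (16.9 and 13.4). All 11 genes of the list of corepressors, coactivators and other regulators were open. It holds corepressor genes as well as coactivators and kinases that activate MEF2, and its leading genes were of the latter kinds: Mapk14 (30.8 and 21.7), Carm1 (26 and 23.5) and Ncoa2 (26.5 and 21.3). The 7 class I and other deacetylase genes were all open, from Hdac1 (19.5 and 17.7), Hdac3 (12.7 and 13.0) and Hdac6 (11.9 and 9.13) down to Hdac8 (1.3 and 1.11). They had 9 distal sites in 293 kb of territory (3.07 per 100 kb, a median of 1 per gene). The 4 class IIa genes had 33 in 607 kb (5.44 per 100 kb, a median of 6.5), a difference that was not tested.

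Of 15 genes listed as targets of MEF2, 13 were open (against 62.5% of all protein-coding genes), led by Jun (25.7 and 21.4), Klf2 (21.5 and 18.4) and Slc2a4 (14.8 and 12.0). Myoz2, a sarcomere protein gene, and Smpx had no shared promoter site, and no strict promoter peak in replicate 1 or replicate 2. The 4 myogenic factor genes were open, with Myod1 at 6.54 and 6.10, Myog at 1.85 and 1.79 and Myf6 at 0.975 and 0.864. MEF2 matches occurred in 6 of 73 sites of the MEF2 target list (8.22%, against 0.569% of all shared sites), at Jun, Klf2, Myoz1, Xirp2 and Nr4a1, the last with 2 sites. They occurred in 1 of 123 sites of the kinase list (0.813%, Camk2a) and in 1 of 31 of the 14-3-3 list (3.23%, Ywhah). No match was present in the 19 sites of the class I and other deacetylases, the 55 of calcineurin and NFAT, the 85 of the cofactors or the 29 of the myogenic factors. With a share of 0.569% over all shared sites, a single match or none in lists of this size does not tell these lists apart. The differences were not tested.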

How the data were processed

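DNase-seq peak lists, footprints and per-base false discovery rates (p-value type columns) were deposited by the authors for each of the 2 libraries in mm10. Peak signal is the authors' deposited value. Of the steps before it, the aligner, the callers and the scaling of the signal were not given in the sources used here. Read depth is unknown. Of the 2 peak lists of each library, the one with fewer rows was called strict. Peaks of the replicates that overlapped by at least 1 bp were merged, and a merged site with a peak of each was a shared site. TSSs came from protein-coding transcripts of GENCODE M21, and sequence from GRCm38.p6, beyond whose chromosome ends 0 peaks lay. Motifs were exact matches on both strands. Merging and the split into promoter and distal sites were tested on simulated peaks, and the motif search on a planted MEF2 word. The naming of the nearest gene and the other motifs were not tested in this way. Python 3.11.15, pandas 2.3.3, numpy 2.4.6, pysam 0.24.0, scipy 1.17.1 and matplotlib 3.10.9 were used.

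The text names all 8 genes with every start region, the 4 strongest distal sites of each, each site with a MEF2 match, and, for the pathway lists, the top 3 genes by mean promoter signal and up to 3 lacking a strict promoter peak. Members and lists were chosen with earlier results of these data known. The labels give biological replicate numbers but not which animals gave each library. Alternatives covered the peak list, each replicate alone, overlap, signal, promoter window, annotation, assignment distance, start joining, footprints and motif window.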

Additional observations from a re-analysis of the deposited data

How the results depend on the processing

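Of 53 alternative values of the main results, 46 kept within 1 SD of the replicates or 1.5 times the count, and 7 did not. The count of 60 distal sites became 97 with the permissive list, 38 with the stronger 50% of peaks and 93 when sites in or within 50 kb of the gene body were counted. The median of 5.5 distal sites per member became 9.5, 3.5 and, with assignment up to 100 kb, 8.5. The median promoter signal of 15.3, which counts the peak shared with Borcs8 and Rfxank for Mef2b, became 17.2 with a 500 bp promoter window. With 1 replicate alone, the members with an open promoter stayed at 8, start regions were 12 in each case against 11, distal sites 73 to 75, their median 6 to 6.5, the median promoter signal 14.0 to 16.5, sites with a footprint 91 in each case against 79, and sites with a MEF2 match 6 to 8. Hdac9 was the gene lost when the members with an open promoter fell to 7, with a 500 bp window and with the stronger 50% of peaks. Of 135 values for single genes, 21 moved, each a count of distal sites. The cause was not tested. None of the 47 promoter signals of single genes moved, but with 1 replicate alone none could. Either of 2 values always lies within 1 SD of their mean. The permissive list and the TSSs of all transcripts gave the same strongest promoter peak for every gene. The unmoved promoter signals are therefore no measure of robustness in these settings. No paired analysis was possible because the series has 1 group. Signal strength limits what can be seen: the site of Hdac9 lies among the weakest promoter sites, and a closed start means no shared strict peak, not closed chromatin in every cell.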
